A study of Mus musculus with 8 samples.

Results

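The CXCR3 axis is described here across 8 MOC1 tumours as 4 genes, the chemokine ligands Cxcl9, Cxcl10 and Cxcl11 and their receptor Cxcr3, chosen by symbol from a table of 55450 genes. MOC1 is a mouse cell line from an oral squamous carcinoma. The tumours were grown in the flank of C57BL/6 mice, although the labels name a tongue carcinoma as their source. Every mouse received anti-PD-1, an antibody against a checkpoint receptor of T cells, together with antisense oligonucleotides (ASOs) for 32 days, so no group without anti-PD-1 was compared. Control ASOs were given to 3 tumours and ASOs against Smyd3, a lysine methyltransferase, to 5. Of these 5, responders 1 and 3 and non-responders 1 and 2 carry a response mark in the labels, and the tumour numbered 2 carries none. These marks describe an outcome, and tumours were not randomised to them. The numbers of the non-responders follow only the order of listing. MOC1 is a single line, the age of the mice is not given in the sources used here, and the labels do not say whether each tumour came from a separate mouse, so p-values measure the spread between these 8 tumours. Messenger RNA was sequenced from whole tumours, which hold host cells as well as carcinoma cells.

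CXCR3 is a G protein-coupled receptor of activated T cells and natural killer cells, and its ligands guide these cells into inflamed tissue. Interferon gamma, acting through the JAK kinases and IRF1, is the classical inducer of all the ligands, and macrophages, dendritic cells, endothelium and epithelium can make them. The receptor itself is switched on in lymphocytes by the transcription factor T-bet, encoded by Tbx21. In anti-PD-1 treatment the axis is known as a route by which CD8 T cells reach dendritic cells inside the tumour.

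The libraries held 22103853 to 27258700 expected counts, and levels are given as CPM, counts per 1000000 after TMM normalisation, with the SD between tumours. The keratinocyte genes Krt5 and Krt14 were abundant, as the label of a squamous carcinoma implies, with control means of 11395 and 12259 CPM. Smyd3 stood at 10.7, 11.9 and 10.6 CPM in controls 1 to 3, at 8.68 and 4.38 CPM in responders 1 and 3, at 4.58 CPM in the tumour without a mark and at 9.26 and 4.88 CPM in non-responders 1 and 2. All 5 Smyd3 ASO tumours therefore lay below the controls, responder 1 and non-responder 1 least so (log2 fold change of the arms -0.80, edgeR FDR 0.246). Markers of tissue around a flank tumour differed between the arms. The summed level of 8 skeletal muscle genes was 16.9 to 57.9 CPM in controls, 472 and 720 CPM in non-responders 1 and 2, 1622 CPM in responder 1, 3828 CPM in the tumour without a mark and 8440 CPM in responder 3. All 8 genes were higher in every Smyd3 ASO tumour than in every control, as were 5.45% of all tested genes, and of the 8 only Pvalb was at 0 in any tumour. The part of this tissue in the results below was not tested.

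The ligands lie together on chromosome 5 of mm10, on the minus strand, within 44139 bases. Cxcl9 (ENSMUSG00000029417.9) spans 92321347 to 92328079, Cxcl10 (ENSMUSG00000034855.13) 92346638 to 92348889 and Cxcl11 (ENSMUSG00000060183.6) 92359544 to 92365485. GENCODE M21 classes Cxcl9 and Cxcl10 as protein-coding and Cxcl11 as a polymorphic pseudogene. The C57BL/6 allele of Cxcl11 is known for a frameshift that leaves no functional protein, while its transcripts are still counted. Cxcr3 (ENSMUSG00000050232.6) lies on the minus strand of chromosome X, 101731535 to 101734269. The 250 bases before the RefSeq start sites of Cxcl9 and Cxcl10 (GRCm38.p6) are shown because these neighbours were the most abundant ligands and varied together across the tumours. The windows are chr5:92328080-92328329 and chr5:92348890-92349139, read 5′ to 3′ on the minus strand. Capitals mark matches to the core of the interferon-stimulated response element (GAAA, any 2 bases, GAAA) and to the NF-kappaB consensus.
Cxcl9: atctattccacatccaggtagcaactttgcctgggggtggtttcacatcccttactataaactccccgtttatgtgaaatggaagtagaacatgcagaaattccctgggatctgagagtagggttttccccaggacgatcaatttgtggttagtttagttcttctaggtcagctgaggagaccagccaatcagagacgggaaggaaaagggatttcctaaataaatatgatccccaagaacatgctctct
Cxcl10: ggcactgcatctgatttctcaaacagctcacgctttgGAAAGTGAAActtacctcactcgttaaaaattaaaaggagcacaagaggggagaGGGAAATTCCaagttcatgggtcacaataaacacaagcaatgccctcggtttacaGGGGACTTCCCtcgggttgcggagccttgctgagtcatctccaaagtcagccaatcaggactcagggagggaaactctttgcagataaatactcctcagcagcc
Both strands were searched. In the Cxcl10 window the response element core began 213 bases before the start, and the NF-kappaB consensus began 159, 104 and 103 bases before it, the last 2 matches overlapping and the match at 103 reading the same on both strands. The Cxcl9 window held neither, and neither window held the interferon gamma activated site (TTC, any 3 bases, GAA). Among 32851 promoter windows of 250 bases, 2.98% held the response element core, 7.25% the NF-kappaB consensus and 7.02% the activated site. These matches describe letters and were not tested as binding sites. Only these exact patterns were searched, so the lack of a match does not show that the Cxcl9 window lacks an element that responds to interferon gamma.

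The first comparison, Smyd3 ASO against control ASO, asks how the axis differed with the ASO target while anti-PD-1 was given to all. All 4 genes had higher means in the Smyd3 ASO arm and log2 fold changes above 1, as 7.88% of all tested genes did (51.8% were above 0). Cxcl10 was the one gene of the 4 whose arms did not overlap. Of all 16911 genes tested, 5.45% were higher in every Smyd3 ASO tumour than in every control. None of the 4 passed the false discovery rate (FDR) threshold of 0.05 in the edgeR fit over all genes, and neither did any other gene (0.0% called). The 3 ligands had an unadjusted p below 0.05, as had 8.55% of all genes in the same direction.

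Cxcl10, a ligand made rapidly by many cell types in response to interferons, was at 31.5, 54.4 and 19.6 CPM in controls 1 to 3. In the Smyd3 ASO arm it was at 158 and 168 CPM in responders 1 and 3, 219 CPM in the tumour without a mark and 69.0 and 127 CPM in non-responders 1 and 2. The lowest Smyd3 ASO tumour, non-responder 1, was above the highest control, control 2, and the tumour without a mark was the highest of all. The means were 35.2 ± 17.7 CPM (SD, n = 3) and 148 ± 55.2 CPM (SD, n = 5), and the exact permutation p was 0.0179 (two-sided, 56 splits), the smallest this design can give. The log2 fold change by edgeR was 2.08 (SE 0.43, 95% interval 1.09 to 3.06) with an FDR of 0.0962. Cxcl10 passed edgeR when non-responder 1 was left out (log2 fold change 2.26, FDR 0.0364) and not when any other tumour was.

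Cxcl9, the ligand most dependent on interferon gamma, was at 128, 342 and 88.8 CPM in controls 1 to 3. It stood at 505 and 669 CPM in responders 1 and 3, 583 CPM in the tumour without a mark and 265 and 469 CPM in non-responders 1 and 2. Control 2 was above non-responder 1, so the arms overlapped by this pair, and the other 4 Smyd3 ASO tumours were above all controls. The arm means were 187 ± 136 CPM (n = 3) and 498 ± 152 CPM (n = 5), with a log2 fold change of 1.42 (SE 0.47, 95% interval 0.36 to 2.48) and an edgeR FDR of 0.211, and of 2.21 without control 2. By exact permutation test the two-sided p was 0.0357, and it was 0.0857 to 0.0952 when any tumour but control 2 or non-responder 1 was left out.

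Cxcl11, the least abundant ligand, rested on few reads, with 10, 24 and 4 expected counts in controls 1 to 3 and 15 to 97 in the Smyd3 ASO tumours. In CPM these were 0.416, 1.07 and 0.168 in the controls, 2.88 and 3.51 in responders 1 and 3, 1.98 in the tumour without a mark and 0.691 and 2.66 in non-responders 1 and 2. As for Cxcl9, control 2 exceeded non-responder 1 and no other Smyd3 ASO tumour. The arm means were 0.551 ± 0.466 CPM (n = 3) and 2.34 ± 1.07 CPM (n = 5). The log2 fold change was 2.09 (SE 0.68, 95% interval 0.55 to 3.62) with an edgeR FDR of 0.206, and the exact permutation p was 0.0536. That p was 0.0476 without control 2 and 0.0286 without non-responder 1, the smallest that each of these smaller designs can give. It fell below 0.05 in only these 2 of the 8 omissions and was as high as 0.0952 in others. Of the 3794 exon bases of Cxcl11, 1582 are also exon of the pseudogene Gm2673 on the opposite strand. Reads of the pair cannot be told apart without strand, and whether counting used strand is not given in the sources used here. Gm2673 was listed at 0 in the controls and at 2 to 20 expected counts in the Smyd3 ASO tumours.

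Cxcr3, the receptor, was at 0.540, 2.14 and 0.295 CPM in controls 1 to 3, from 13, 48 and 7 expected counts. It was at 2.31 and 5.18 CPM in responders 1 and 3, 1.55 CPM in the tumour without a mark and 0.599 and 1.66 CPM in non-responders 1 and 2. Only the responders were above control 2, and the other 3 Smyd3 ASO tumours lay inside the control range. The means of 0.992 ± 1.0 CPM (n = 3) and 2.26 ± 1.74 CPM (n = 5) gave a log2 fold change of 1.19 (SE 0.80, 95% interval -0.63 to 3.01), an edgeR FDR of 0.519 and an exact permutation p of 0.214. The log2 fold change was 0.62 without responder 3, 0.75 without control 3 and 2.44 without control 2. The interval spans 0 and also the estimates of all the ligands, so the data do not show whether the receptor differed between the arms. In bulk tissue, fewer receptor-bearing cells and less Cxcr3 RNA per cell cannot be told apart.

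**Figure D1:**
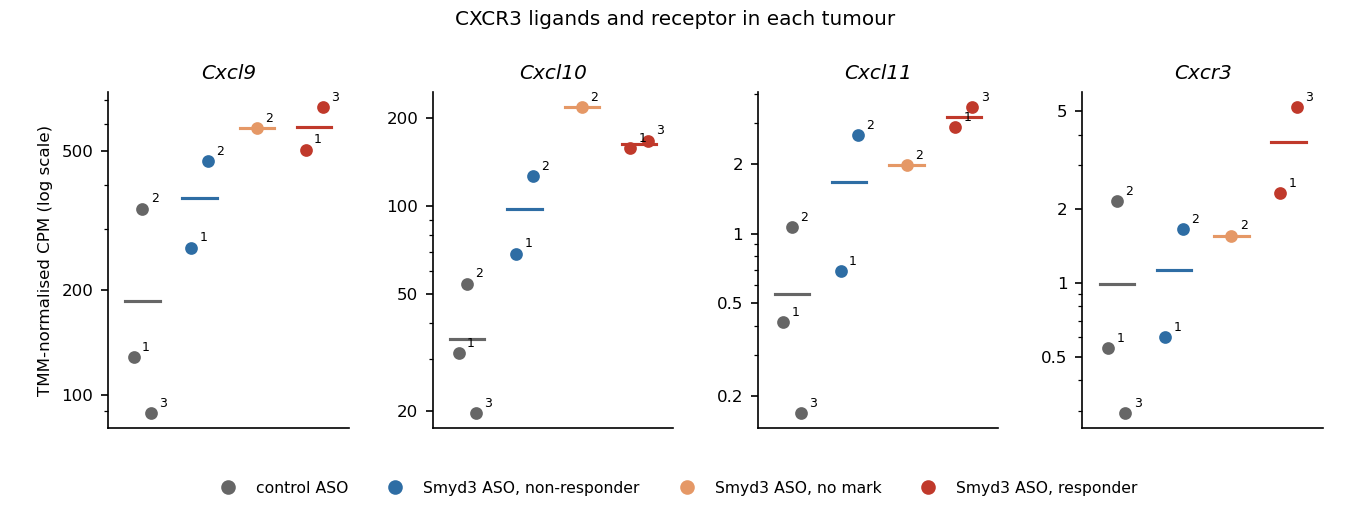
TMM-normalised CPM on a log scale (y axis) of the ligands and the receptor in each of the 8 tumours, grouped and coloured by ASO and response mark, with replicate numbers beside the points and bars at group means. For Cxcl10 the lowest Smyd3 ASO tumour (69.0 CPM) is above the highest control (54.4 CPM), and for the other 3 genes control 2 overlaps the Smyd3 ASO arm.

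The ligands' calls between the arms depended on the tool, and that of Cxcl10 also on which tumours were used. DESeq2 on the same counts passed all 3 ligands, with adjusted p of 0.0177 for Cxcl9, 1.21e-05 for Cxcl10 and 0.0338 for Cxcl11 and fold changes within 0.01 of those of edgeR, and it called 3.95% of all genes higher. It did not pass Cxcr3. Limma voom passed none of the 4. Across all genes edgeR called 0, with 2630 of 16911 genes at an unadjusted p below 0.05, DESeq2 called 1053 and limma voom 0.

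Control 2 was the highest control for each of the 4 genes and control 3 the lowest. Among the Smyd3 ASO tumours non-responder 1 was the lowest for each gene. Responder 3 was the highest for Cxcl9, Cxcl11 and Cxcr3, while the tumour without a mark led for Cxcl10 and lay below non-responder 2 for Cxcl11. Controls 1 and 3 were the lowest 2 of all 8 tumours for every gene of the axis.

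Inside the Smyd3 ASO arm, tumours marked as responders were set against those marked as non-responders. Each of the 4 genes was higher in both responders than in both non-responders, as were 20.3% of all tested genes. No gene of the axis passed the edgeR threshold, and 0.0% of all genes were called. The mean of Cxcl9 was 587 ± 116 CPM for responders against 367 ± 144 CPM for non-responders (n = 2 each), with a log2 fold change of 0.68 (95% interval -0.78 to 2.14). For Cxcl10 the means were 163 ± 6.70 and 98.2 ± 41.3 CPM (n = 2 each), with a log2 fold change of 0.73 (95% interval -0.38 to 1.84). Cxcl11 showed a log2 fold change of 0.93 (95% interval -1.06 to 2.92). Cxcr3 had the largest estimate of the 4, with means of 3.75 ± 2.03 and 1.13 ± 0.747 CPM (n = 2 each) and a log2 fold change of 1.73 (95% interval -0.55 to 4.0). These sizes rested on single tumours. Without non-responder 1 the values were 0.32 for Cxcl9, 0.36 for Cxcl10, 0.27 for Cxcl11 and 1.177 for Cxcr3, and without non-responder 2 they were 1.14, 1.23, 2.19 and 2.63. For Cxcr3 the value was 1.03 without responder 3. The edgeR FDRs ran from 0.652 to 0.779, and DESeq2, which called 0.94% of all genes higher, passed none of the 4. Over all genes DESeq2 called 225, limma voom called 0 and 1436 had an unadjusted edgeR p below 0.05. With 2 tumours on each side an exact permutation test cannot go below 0.333.

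Each response group was also set against the same 3 controls, so the following values are given side by side and were not compared with each other. In responders the log2 fold changes were 1.65 (SE 0.55) for Cxcl9, 2.21 (SE 0.43) for Cxcl10, 2.53 (SE 0.79) for Cxcl11 and 1.92 (SE 0.85) for Cxcr3. None passed the edgeR threshold, at which 1.66% of all genes were called, and the lowest FDR was 0.0629 for Cxcl10. That share stands for 280 genes, and the number was 0 without control 1, 6 without control 3, 33 without responder 3 and 107 without control 2. The 3 ligands had an unadjusted p below 0.05, as had 9.62% of all genes in that direction. Both responders were above all controls for each of the 4 genes, as for 18.8% of all genes. Without control 2 the log2 fold changes of Cxcl9 and Cxcl10 were 2.45 and 2.69 and both passed, with FDRs of 0.0464 and 0.046. DESeq2 passed Cxcl9, Cxcl10 and Cxcl11 with adjusted p of 0.0212, 8.15e-06 and 0.0491, against 4.46% of all genes called higher.

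In non-responders the log2 fold changes against controls were 0.98 (SE 0.55) for Cxcl9, 1.48 (SE 0.42) for Cxcl10, 1.60 (SE 0.80) for Cxcl11 and 0.19 (SE 0.89) for Cxcr3. No gene of the table passed (0.0% called), with 1562 at an unadjusted p below 0.05, 339 called by DESeq2 and 0 by limma voom. Cxcl10 was the one gene of the axis with both non-responders above all controls, where 12.2% of all genes did so, and the one that DESeq2 passed (adjusted p 0.0238, with 1.35% of all genes called higher). Leaving out 1 tumour moved Cxcl9 to between 0.50 (without non-responder 2) and 1.77 (without control 2), Cxcl10 to between 0.97 and 1.96, and Cxcl11 to between 0.33 and 2.52, with the same tumours left out. The small Cxcr3 value had no stable sign: it was -0.10 without control 1, -0.26 without control 3, -0.72 without non-responder 2 and 1.44 without control 2.

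**Figure D2:**
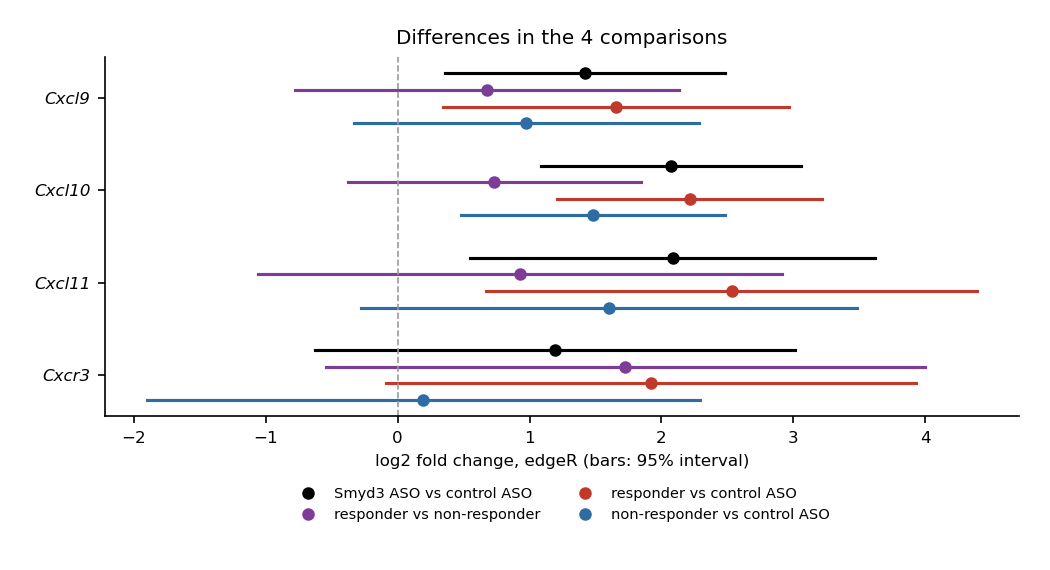
Log2 fold changes of the 4 genes by edgeR (x axis, bars are 95% intervals) in the 4 comparisons. The Cxcl10 intervals against controls lie above 0, from 1.09 to 3.06 for the whole arm, while all 4 intervals of responders against non-responders and all 4 of Cxcr3 span 0.

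Levels of different genes were compared per length, as CPM per kilobase of merged annotated exons. In controls Cxcl9 stood at 61.8 ± 45.2, Cxcl10 at 15.6 ± 7.86, Cxcr3 at 0.573 ± 0.579 and Cxcl11 at 0.145 ± 0.123 CPM per kilobase (n = 3). In Smyd3 ASO tumours the corresponding levels were 165 ± 50.3, 65.8 ± 24.5, 1.31 ± 1.01 and 0.618 ± 0.283 (n = 5). Per length, the order Cxcl9, Cxcl10, Cxcr3, Cxcl11 held in each of the 8 tumours. In CPM Cxcl11 was above Cxcr3 in some of them, such as non-responder 2 (2.66 and 1.66 CPM). The order of this last pair therefore rests on the exon lengths used, 3794 bases for Cxcl11 and 1731 for Cxcr3. Cxcl9 exceeded Cxcl10 by 1.99 to 4.70 times per length, and Cxcl11 by 221 to 664 times.

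Ratios within a tumour show whether the genes differed by unequal amounts between the arms. Cxcl9 per Cxcl10, as a ratio of CPM, was 4.08, 6.29 and 4.52 in controls 1 to 3. It was 3.19 and 3.98 in responders 1 and 3, 2.67 in the tumour without a mark and 3.84 and 3.68 in non-responders 1 and 2. Every Smyd3 ASO tumour was below every control, a mean difference of -0.50 on the log2 scale. The exact permutation p was 0.0179 before and 0.125 after Benjamini-Hochberg adjustment over the 7 ratios computed, so the difference did not pass. Cxcl11 per Cxcr3, also as a ratio of CPM, was 0.5 to 0.769 in controls and 0.678 to 1.61 in Smyd3 ASO tumours. The log2 difference was 0.81 (exact permutation p = 0.0714, adjusted 0.25). For the 4 other ratios between members the adjusted p ran from 0.344 to 1.0.

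The receptor was set against Cd3e, a subunit of the T cell receptor complex carried by all T cells. Cd3e was at 1.50, 4.24 and 2.19 CPM in controls 1 to 3, at 6.25 and 13.8 CPM in responders 1 and 3, at 6.21 CPM in the tumour without a mark and at 2.44 and 4.88 CPM in non-responders 1 and 2. Its arm means of 2.64 ± 1.42 and 6.71 ± 4.24 CPM differed by 2.54 times, and those of Cxcr3 by 2.28 times. The mean log2 ratio of Cxcr3 to Cd3e was -1.63 ± 0.85 (n = 3) in controls and -1.63 ± 0.27 (n = 5) in Smyd3 ASO tumours (exact permutation p = 1.0), and leaving out 1 tumour moved the difference to between -0.48 (without control 3) and 0.34 (without control 2). The ratio of CPM ranged from 0.135 in control 3 to 0.505 in control 2, and the 5 Smyd3 ASO tumours lay between 0.245 and 0.376. No ratio to another T cell gene was computed. Over the 8 T cell genes listed, log2 fold changes of the arms ran from 0.30 to 1.92, with 1.35 for Cd3e and 1.19 for Cxcr3.

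Covariation over the 8 tumours was measured for the 6 pairs of members and for Ifng with each member, 10 relations in all. Ifng, which encodes interferon gamma, was at 0.624, 0.892 and 0.463 CPM in controls 1 to 3, at 2.19 and 3.55 CPM in responders 1 and 3, at 2.10 CPM in the tumour without a mark and at 0.967 and 1.70 CPM in non-responders 1 and 2. It was higher in every Smyd3 ASO tumour than in every control, with non-responder 1 just above control 2. Pearson's r with Ifng on the log2 scale was 0.939 for Cxcl9, 0.947 for Cxcl10 and 0.953 for Cxcl11 (adjusted exact permutation p = 0.00112, 0.00159 and 0.00118, raw p = 0.000149, 0.000794 and 0.000471). Spearman's rho was 0.952, 0.929 and 0.952 (adjusted exact permutation p = 0.00372 each, raw p = 0.00114, 0.00223 and 0.00114). Without control 3 and responder 3, the tumours farthest from the median of Ifng, r was 0.922, 0.982 and 0.941. For Cxcr3 it was 0.882, with rho 0.833 (adjusted exact permutation p = 0.00543 and 0.0171, raw p = 0.00489 and 0.0154), and 0.681 without these 2 tumours.

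Between the ligands r was 0.964 for Cxcl9 and Cxcl10, 0.969 for Cxcl9 and Cxcl11 and 0.942 for Cxcl10 and Cxcl11, with rho of 0.952, 0.929 and 0.833. Adjusted exact permutation p was 0.00118, 0.00112 and 0.00167 for r (raw p = 0.000422, 0.000223 and 0.00126) and 0.00372, 0.00372 and 0.0171 for rho (raw p = 0.00114, 0.00223 and 0.0154). The receptor followed Cxcl9 (r 0.898, rho 0.833) and Cxcl11 (r 0.913, rho 0.929), with adjusted exact permutation p of 0.00161 and 0.00167 for r (raw p = 0.000967 and 0.00134) and 0.0171 and 0.00372 for rho (raw p = 0.0154 and 0.00223). Its relation to Cxcl10 was looser, with r 0.789 and rho 0.667 (adjusted exact permutation p = 0.0241 and 0.0831, raw values the same). All these pairs were recomputed without controls 1 and 3, the tumours farthest from the median of the ligand. The r values were then 0.886, 0.921 and 0.797 between ligands, 0.778 for Cxcl9 and 0.779 for Cxcl11 with Cxcr3, and 0.419 for Cxcl10 with Cxcr3. This last relation depended on single tumours, and not on those 2 controls alone, since it also missed the threshold without responder 3. Each arm has fewer than 6 tumours, so no value within an arm is given, and the difference between the arms is part of every r.

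**Figure D3:**
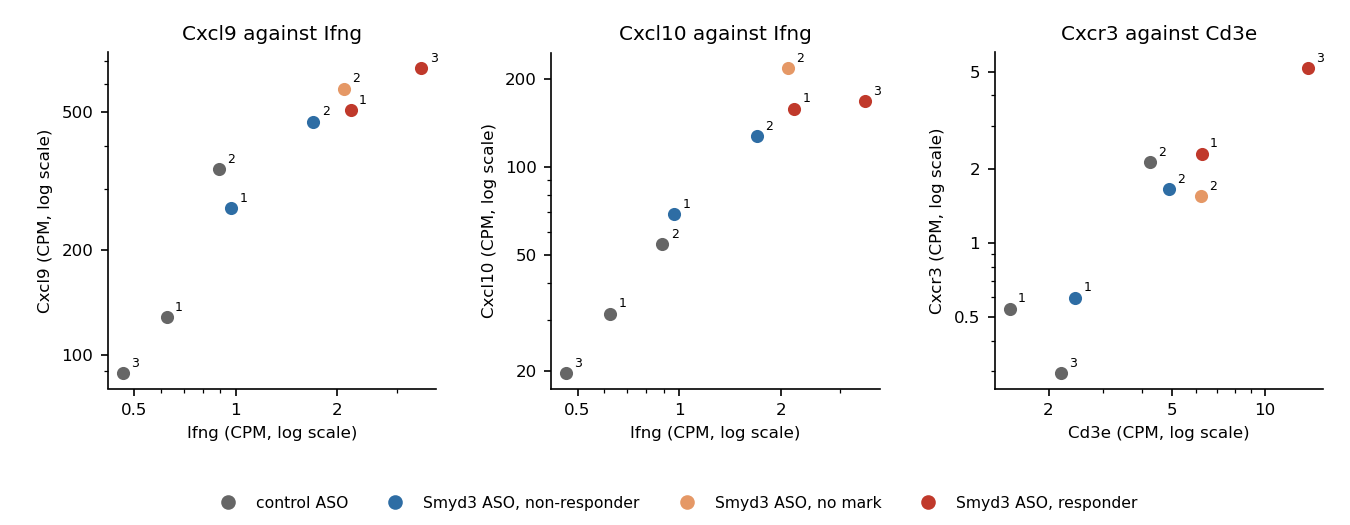
CPM of Cxcl9 and of Cxcl10 against Ifng, and of Cxcr3 against Cd3e (both axes on log scales), 1 point for each of the 8 tumours coloured by group and labelled by replicate number. In the Ifng panels controls 1 and 3 sit lowest and control 2 lies beside non-responder 1, and in the Cd3e panel responder 3 is highest on both axes (13.8 and 5.18 CPM).

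The pathway upstream of the ligands was read from a list of 8 genes of interferon gamma signalling. Between the arms 7 of the 8 had positive log2 fold changes, the median being 0.60 where that of all genes was 0.01, 4 were higher with arms that did not overlap (5.45% of all genes) and 0 passed edgeR. Irf1, a transcription factor induced by interferon gamma, ranged from 168 to 197 CPM under control ASO and from 231 to 426 CPM under Smyd3 ASO, a log2 fold change of 0.92 (FDR 0.0939), and Socs1, a feedback inhibitor of JAK kinases, 0.94 (FDR 0.103). The receptor and kinase genes Ifngr1, Ifngr2, Jak1 and Jak2 had log2 fold changes of -0.15 to 0.27. In responders against controls Irf1 rose and passed edgeR (1.13, FDR 0.032). Of 12 measured genes for other inducers 9 lay above 0 in the arm comparison (median 0.61) and 0 passed. Stat2, a transcription factor of type I interferon signalling, had a log2 fold change of 0.95 (FDR 0.0999) and the cytokine Tnf 0.70 (FDR 0.106), both without overlap between arms. The NF-kappaB subunits Nfkb1 and Rela had values of -0.02 and -0.06. Ifnb1, the gene of interferon beta, and Il12a were below the count filter.

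On the receptor's side, 8 lymphocyte regulators were listed, and all 8 lay above 0 with a median of 1.39. None passed edgeR and 3 had arms that did not overlap, against 5.45% of all genes. These were Eomes, a T-box factor of cytotoxic lymphocytes (1.82, FDR 0.109), Il12rb2, a chain of the interleukin-12 receptor (1.77, FDR 0.106), and Stat4, which transmits its signal (1.26, FDR 0.252). Tbx21 itself averaged 0.619 ± 0.275 CPM under control ASO (n = 3) and 1.20 ± 0.985 CPM under Smyd3 ASO (n = 5), with a log2 fold change of 0.96 and an FDR of 0.526, and it was below every control in non-responder 1 (0.369 CPM). Cxcr6, another chemokine receptor of effector T cells, had a log2 fold change of 1.52 (FDR 0.249).

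Genes that modify or share the ligands had no common direction. Among 7 of them 3 lay above and 4 below 0, with a median of -0.03 and 0 past edgeR. Dpp4, a peptidase that trims and inactivates the ligands, had a log2 fold change of 0.87 (FDR 0.437). Pf4, which encodes another ligand of CXCR3, averaged 8.24 ± 5.60 CPM under control ASO (n = 3) and 8.06 ± 4.98 CPM under Smyd3 ASO (n = 5). Ackr3, a scavenging receptor that binds CXCL11, had -0.29 (FDR 0.418), and Ackr1, a scavenging receptor of venular endothelium and red cells, 2.35 (FDR 0.191) with arms that did not overlap. The heparan sulphate proteoglycans Sdc1 and Sdc4 had -0.37 (FDR 0.197) and -0.31 (FDR 0.259), and both were lower in every Smyd3 ASO tumour than in every control, as were 5.14% of all genes. Of 13 genes of receptor signalling 6 lay above and 7 below 0 (median -0.02) and 0 passed. Arrb1, an arrestin of chemokine receptors, stood apart among them at 159 to 233 CPM under control ASO and 60.2 to 101 CPM under Smyd3 ASO, a log2 fold change of -1.29 with an FDR of 0.0656, while Arrb2 had 0.26.

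**Figure D4:**
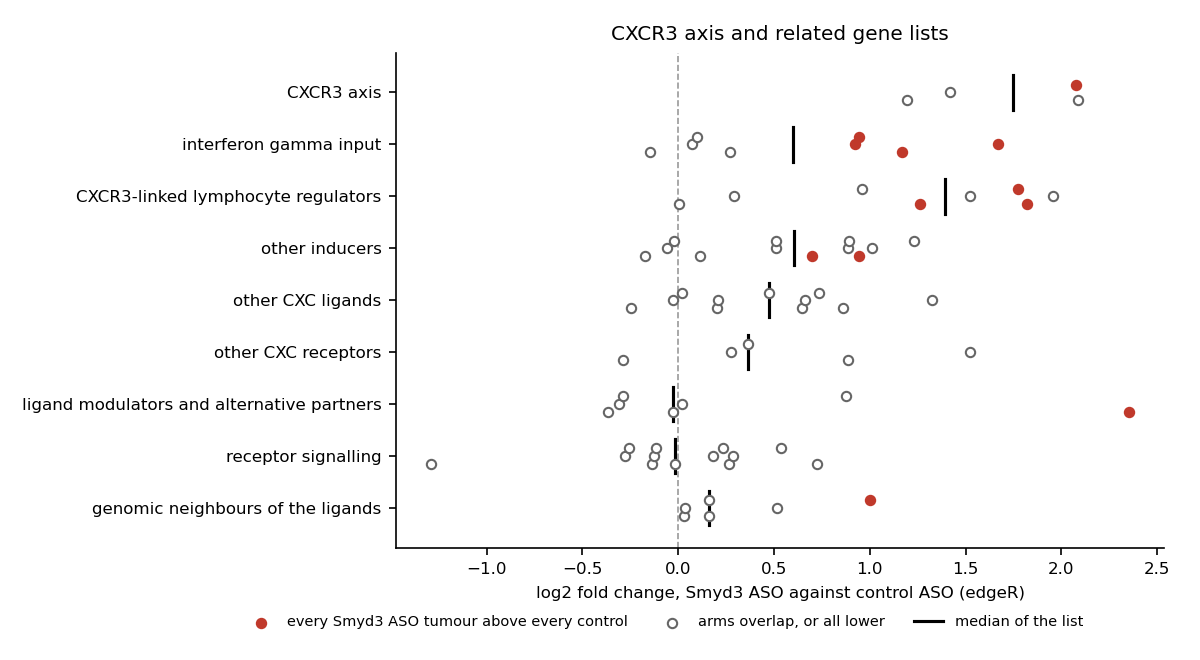
Log2 fold change of Smyd3 ASO against control ASO by edgeR (x axis) for the CXCR3 axis and 8 related gene lists, 1 circle per measured gene with black lines at list medians. Filled circles are genes with every Smyd3 ASO tumour above every control. The axis has a median of 1.75, the lymphocyte regulators 1.39 and the receptor signalling genes -0.02, and no gene shown passed FDR 0.05.

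The other CXC chemokines gave a smaller median, and their difference from the CXCR3 axis was not tested. Of 11 measured ligands 9 lay above 0, with a median of 0.47, and neither an edgeR call nor a separation of the arms was found among them. Cxcl13, a chemokine that attracts B cells, had the largest estimate, a log2 fold change of 1.32 (FDR 0.697), which lies between those of Cxcr3 and Cxcl9. Cxcl5 and Cxcl1, which attract neutrophils through CXCR2, had log2 fold changes of 0.86 (FDR 0.457) and 0.73 (FDR 0.48), and Ppbp 0.66. Cxcl16, the ligand of CXCR6, had 0.20. Between responders and non-responders 6 of the 11 lay above and 5 below 0, with a median of 0.22 and 0 past edgeR. They ran from Cxcl1 and Cxcl2 at -1.16 and -1.11 (FDR 0.578 and 0.573) to Cxcl12 at 1.21 (FDR 0.758) and Cxcl13 at 2.15 (FDR 0.689), the last above the estimates of all 4 genes of the axis. Of 5 measured CXC receptors other than CXCR3, 4 lay above 0 (median 0.36) and 0 passed.

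The genes flanking the ligands on chromosome 5 were read to see how local the differences were. All 6 lay above 0 in the arm comparison with a median of 0.16, and 5 of them, Nup54, Sdad1, Scarb2, Naaa and Ppef2, had values of 0.03 to 0.52 with arms that overlapped. Art3, a mono-ADP-ribosyltransferase gene on the plus strand whose span (92331827 to 92414628) holds Cxcl10 and Cxcl11, was the sixth. It was at 12.0, 10.7 and 12.8 CPM in controls 1 to 3, and every Smyd3 ASO tumour was above them at 16.5 to 34.6 CPM, a log2 fold change of 1.0 (FDR 0.109), and passed in responders against controls (1.34, FDR 0.0276). Art3 and Cxcl10 share 133 exon bases, 5.91% of those of Cxcl10, and Art3 and Cxcl11 share 0.

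Markers of some of the cells that can make or receive these ligands were higher in some of the same tumours. The summed level of 8 T cell genes ranged from 22.8 to 47.9 CPM under control ASO and from 34.7 to 157 CPM under Smyd3 ASO. All 8 had a log2 fold change above 0 (51.8% of all genes; median 1.59), 3 had arms that did not overlap (5.45% of all genes) and none was at 0 in any tumour. Cd8a, a coreceptor of cytotoxic T cells, ranged from 3.99 to 6.69 CPM in the controls and from 7.74 to 39.5 CPM in the other arm (log2 fold change 1.92, FDR 0.13). In responders against controls 2 of the 8 T cell genes passed edgeR, Cd3d (FDR 0.027) and Trbc2 (FDR 0.0475). Of all genes 1.66% were called in that comparison. Genes of type 1 conventional dendritic cells summed to 20.4 to 51.8 and 33.5 to 92.3 CPM (4 of 4 above 0, median 0.74), and Xcr1 had arms that did not overlap. Natural killer cell genes summed to 1.33 to 6.60 and 2.95 to 16.9 CPM (4 of 4 above 0, median 0.87), with Klra8 and Ncr1 at 0 in some tumours. Macrophage genes summed to 497 to 922 and 469 to 1144 CPM, with 4 of 6 above 0 and a median of 0.10. In each of these 4 lists control 2 was the highest control, as it was for the CXCR3 axis, and responder 3 the highest tumour. This order was not particular to them. Control 2 was also the highest control for the B cell, endothelial, fibroblast, squamous epithelium and adipocyte sums. Responder 3 was also the highest tumour for the B cell, skeletal muscle and adipocyte sums. Of the other lists, fibroblast genes summed to 2363 to 4398 CPM in controls and 1461 to 1772 CPM with Smyd3 ASO (2 of 4 below 0, median -0.37). Of these genes 2 were lower with arms that did not overlap, as were 5.14% of all genes. The adipocyte sums, 45.6 to 63.1 and 55.1 to 295 CPM, overlapped, and in controls they were carried by Fabp4 and Lipe. In responder 3, the highest tumour, Fabp4 was at 97.6 and Lipe at 37.4 CPM, beside Cfd at 74.5 and Plin4 at 56.9 CPM. Of the adipocyte genes 6 of 6 lay above 0 with a median of 6.23. Plin4, a lipid droplet protein, and Cfd, an adipocyte protease, had arms that did not overlap and passed edgeR in responders against controls (6.41, FDR 0.04, and 9.73, FDR 0.0315). In that comparison 6 of the 8 skeletal muscle genes also passed. Adipoq, Cfd and Plin1 were at 0 in some tumours, so their fitted values rest on few control reads. B cell genes summed to 1.41 to 2.54 and 1.01 to 11.4 CPM (4 of 4 above 0, median 2.01), with Ms4a1 at 0 in some tumours. Neutrophil genes (3 of 3 above 0, median 0.28) and endothelial genes (1 of 4 above 0, median -0.15) had sums that overlapped between the arms. So did squamous epithelium genes (1 of 6 above 0, median -0.19). Their sums were 27339 to 32958 CPM in controls and 18361 to 38701 CPM with Smyd3 ASO. The part of these cells in the levels of the CXCR3 axis was not tested.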

How the data were processed

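Messenger RNA of 8 tumours was sequenced, and the authors deposited 1 table of RSEM expected counts per gene, not scaled to library size. Per the labels' protocols, polyA libraries were prepared by TruSeq Stranded mRNA chemistry, and per the submitters' processing notes bcl2fastq 2.17, cutadapt 1.18, STAR 2.7.0f and RSEM 1.3.0 were used with mm10. Their settings are not given in the sources used here. Each column was matched to its tumour by the sample description, and all 55450 identifiers were found in GENCODE M21.

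Expected counts were rounded. Genes with 0.424 CPM (10 reads in the median library) in 2 or more libraries and 15 reads in all were kept, 16911 genes. These were normalised by TMM and fitted with edgeR 4.0.16 in R 4.3.3 (robust quasi-likelihood, two-sided, Benjamini-Hochberg FDR 0.05 over all genes). The arms were fitted with treatment alone, and the other 3 comparisons with 4 groups over all 8 libraries. The SE is the log2 fold change divided by the root of the F statistic. DESeq2 1.42.0 and limma voom 3.58.1 were alternatives. Single values, ratios and correlations used log2 CPM with prior count 2 and exact permutation tests. Library totals were 22103853 to 27258700, at which Cxcl11 and Cxcr3 rest on 4 to 143 reads a tumour, and so are less precise than Cxcl9 and Cxcl10. The steps were tested on simulated counts.

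The 4 genes and all lists were chosen with earlier results of these data known. Named genes are the 4 genes, Smyd3, Cd3e as a denominator, genes of the interferon gamma, lymphocyte regulator and neighbour lists, and up to 4 per other list by smallest p. Some further genes were named after their values were seen: Nfkb1, Rela, Ifnb1, Il12a, Cxcl12, Cxcl13, Cxcl16, Fabp4, Lipe, Pf4, Dpp4, Arrb2, Pvalb and Gm2673. Values of some genes that these rules cover are not reported here. Promoter sequences are from RefSeq, which matched 3 of the 4 genes and not Cxcl11.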

Additional observations from a re-analysis of the deposited data

How the results depend on the processing

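Counts of calls depended on the tool and on single tumours. Smyd3 ASO against control ASO gave 0 genes by edgeR, 1053 by DESeq2, 52 with no filter on low counts, 25 with the mean of responders and non-responders weighted equally, and 0 to 258 when 1 tumour was left out (258 without non-responder 1, 5 without control 1). Responder against non-responder gave 225 by DESeq2, 7 with no filter and 0 to 21 (21 without responder 1). Responder against control gave 280, with 1153 by DESeq2, 135 by limma voom, 499 with no filter and 0 to 287, including 134 and 169 without non-responder 2 and 1. Non-responder against control gave 339 by DESeq2, 32 with no filter and 0 whichever tumour was left out. The causes were not tested. Where leaving out a tumour leaves an arm with 1 sample, that sample is assumed to vary like the other groups. Same-numbered tumours did not deviate together (r -0.034, 0 and 0.076), so the numbers were not taken to pair them. With the replicate block over the 6 numbered libraries 245 genes passed, and 286 passed in the same libraries without it, Cxcl10 in both (log2 fold changes 2.47 and 2.37). With the block on controls and responders 1 and 3, 818 genes passed, with Cxcl9 at 2.44, Cxcl10 at 2.71 and Cxcl11 at 3.47. This fit also leaves out control 2, and without control 2 alone these values were 2.45, 2.69 and 3.44. The same libraries were not fitted without the block, so its part in these values cannot be told. The non-responder value of Cxcr3 ranged from -0.72 to 1.44 (-0.103 without control 1, -0.263 without control 3), still not passing. With 1 tumour left out, the log2 differences by arm were 1.183 to 2.156 for Cxcl9, 1.74 to 2.48 for Cxcl10, 1.51 to 2.61 for Cxcl11 and 0.687 to 1.966 for Cxcr3. The Cxcl10 permutation p was 0.0571 without any 1 of responder 1, responder 3, the tumour without a mark or non-responder 2. With prior count 0.5 Cxcl11 by arm was 2.22 (exact permutation p = 0.0357) and Cxcl10 per Cxcl11 -0.115, a ratio that ranged from -0.132 to 0.234 with 1 tumour left out, as Cxcr3 per Cd3e did from -0.479 to 0.336. The r of Cxcl10 with Cxcr3 was 0.652 to 0.866 and missed the threshold without control 1, control 3 or responder 3, and that of Ifng with Cxcr3 was 0.811 to 0.977 and missed it without responder 3. Of the members' fold changes under all alternatives, 190 kept their direction and call, 15 passed where the value in the report did not and 3, those of Cxcr3 above, reversed. Cxcl11 and Cxcr3 are limited by depth, with 4 to 24 and 7 to 48 expected counts in the controls.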

Other observations

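The genes whose log2 CPM followed each member most closely were found by Pearson's r over the 8 tumours, as a description. They were taken from 12435 genes whose log2 CPM averaged 1 or more. Genes named as predicted genes, Riken or other clones, pseudogenes or mitochondrial genes had been left out, and places are counted in this set. For Cxcl9 these were Btrc, an F-box protein of a ubiquitin ligase (r 0.986), Ciita, the transactivator of MHC class II genes (0.981), Rnf19b (0.977), AW112010 (0.974) and Cd40, a costimulatory receptor of antigen-presenting cells (0.974). By their r, Cxcl11 and Cxcl10 would take places 7 and 9 behind them, and Cxcr3 place 97. Cxcl11 and Cxcr3 themselves averaged below 1 and were not among the ranked genes. For Cxcl10 they included the guanylate-binding proteins Gbp2 (0.981) and Gbp10 (0.978), Tmem243 (0.976) and Il18bp, which neutralises interleukin-18 (0.974). Btrc had a log2 fold change of 0.17 between the arms (edgeR FDR 0.52), while Gbp10 had 2.47 (edgeR FDR 0.0939).

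For Cxcl11 the closest genes were the checkpoint receptor Ctla4 (0.986), Cxcl9 (0.969), Btrc (0.965), the MHC class II chain H2-Aa (0.964) and the chemokine Ccl5 (0.959). Those of Cxcr3 were the nucleoside transporter Slc28a2 (0.992), Fhod1 (0.985), Batf3, a factor of type 1 conventional dendritic cells (0.980), P2ry10 (0.980) and Ifi30 (0.979). None of the ligands had an r among the 100 highest with Cxcr3: Cxcl9 took place 207 and Cxcl10 place 632. Cxcl11, which was not among the ranked genes, would by its r take place 159. All points share the same 8 libraries, and genes are not independent replicates.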
